A study of Rattus norvegicus with 6 samples.

Results

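The microRNA miR-22 was followed through its 2 mature products, miR-22-3p and miR-22-5p, in the small RNA of rat liver. A tag, which is a distinct read sequence, was counted for an arm when its first 18 bases equalled those of the mature sequence in RefSeq. By this rule 158 tags belonged to miR-22-3p and 21 to miR-22-5p, out of 1528721 tags in all. These are 2 of 686 mature arms in the reference that were long enough to be matched, and 365 different arm starts had reads. The libraries came from the livers of 3 Wistar rats with nonalcoholic fatty liver disease (NAFLD) and 3 normal Wistar rats, each rat giving 1 library. The NAFLD rats had been fasted and then fed a starch-rich diet for a week, whereas the normal rats received standard chow. The sample labels give an age of 4 months for both groups, while the paper states an older age in weeks. All rats were male according to the methods. The NAFLD livers were picked for their higher triglycerides and the normal livers were picked at random, and the diet with the fast before it cannot be told apart from the fatty liver. Liver is a mixture of hepatocytes and other cells, so in these libraries fewer cells that make miR-22 and less miR-22 per cell cannot be told apart.

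A microRNA gene is transcribed into a hairpin, and the enzymes Drosha and Dicer cut this hairpin into a short duplex. One strand of the duplex, the guide, is loaded into an Argonaute protein and pairs with messenger RNAs mainly through its seed, the bases near its 5′ end. The other strand, the passenger, is mostly degraded. For miR-22 the 3p arm is the known guide. It is made in many tissues, liver included. The 5′ end of the guide sets the seed, while the 3′ end is trimmed and extended with added bases after processing.

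The sequences are shown first, because the seed, the ends and the positions of substitutions are referred to throughout. In the mature arms the seed, bases 2 to 8, is in capitals. In the hairpin both arms are in capitals, the 5p arm at hairpin bases 19 to 40 and the 3p arm at bases 57 to 78. RefSeq places the hairpin of 95 bases at chr10:60805331-60805425 on the plus strand of the GRCr8 build, in a gene annotated as a miRNA. In that annotation no other gene overlapped it. The microRNA gene Mir6326 was its nearest neighbour on one side and the protein-coding gene Tlcd2 on the other.
rno-miR-22-3p: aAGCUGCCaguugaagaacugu
rno-miR-22-5p: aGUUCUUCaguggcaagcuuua
Mir22 hairpin: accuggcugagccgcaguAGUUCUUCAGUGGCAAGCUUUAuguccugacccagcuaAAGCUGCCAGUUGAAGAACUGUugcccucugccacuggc
No other mature arm of the reference had the seed of either miR-22 arm (0 arms for each). Reads were found almost only at the annotated arms. Of 16524 reads that followed the hairpin without a mismatch over their whole length, 16500 began at the annotated first base of either arm (99.9%) and 24 began elsewhere.

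The libraries held 11601058 to 11880695 clean reads. The levels below are in TPM, the reads of an arm per 1000000 clean reads of the library. The 6 libraries fall into 2 sets by the share of reads that carry a base substitution, and this division cuts across the groups. Over the 37 arms with a mean of at least 100 TPM, the median share of reads with 1 substitution within the first 18 bases was 28.2% to 29.4% in NAFLD replicates 2 and 3 and normal replicate 2. In NAFLD replicate 1 and normal replicates 1 and 3 it was 0.846% to 1.19%. Values for miR-22 are therefore given for exact reads and with substitutions allowed.

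miR-22-3p was among the more abundant arms of these livers, and its level did not separate the groups. It had 326, 168 and 217 TPM in NAFLD replicates 1, 2 and 3 and 445, 154 and 299 TPM in normal replicates 1, 2 and 3. The groups overlapped, and the lowest values in each group were in the libraries with many substitutions. The mean was 237 ± 80.6 TPM in NAFLD and 299 ± 146 TPM in normal livers (SD, n = 3 each). In edgeR's quasi-likelihood test over 167 arms, scaled by the clean reads of each library, the log2 fold change of NAFLD over normal was -0.34 (standard error 0.47) with a Benjamini-Hochberg adjusted p of 0.986. Of the arms tested, 0.599% passed an adjusted p of 0.05, which is 1 arm, and neither miR-22 arm was among them. The arm that passed was miR-122-5p, the dominant microRNA of hepatocytes, which fell by 0.35 on the log2 scale (adjusted p = 0.000532 by edgeR). No arm was called with TMM factors, with at most 2 substitutions, with 18-base starts as features or by limma, where the smallest adjusted p over all features was 0.065, 0.057, 0.481 and 0.998. With at most 2 substitutions and TMM factors together, 1 arm was called lower, and the smallest adjusted p by edgeR was 0.036. In the fit of exact reads scaled by clean reads, the median log2 fold change of all tested arms was 0.018.

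miR-22-5p, the passenger arm, followed the same order of sets. It had 24.2, 13.8 and 12.6 TPM in NAFLD replicates 1 to 3 and 24.7, 10.3 and 22.8 TPM in normal replicates 1 to 3, from 122 to 293 reads per library. The groups overlapped again, with the 3 libraries of many substitutions below the other 3. The mean was 16.9 ± 6.39 TPM in NAFLD and 19.3 ± 7.84 TPM in normal livers (SD, n = 3 each), and the log2 fold change was -0.19 (standard error 0.46, adjusted p = 0.986 by edgeR).

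By mean TPM over the 6 libraries, miR-22-3p ranked 28 and miR-22-5p ranked 77 of the 365 arms with reads. The neighbours of miR-22-3p in this order were miR-152-3p, a relative of miR-148a, with 305 ± 134 TPM in NAFLD and 306 ± 156 TPM in normal livers, and miR-25-3p of the miR-106b cluster with 267 ± 27.0 and 259 ± 65.5 TPM (SD, n = 3 each). Their ranges over the libraries contained or overlapped that of miR-22-3p, so this order does not exceed the spread. miR-22-5p lay between miR-375-3p, known from endocrine cells, at 17.6 ± 3.82 and 20.0 ± 4.49 TPM, and miR-1b, of a muscle microRNA family, at 9.32 ± 3.79 and 24.5 ± 11.7 TPM (SD, n = 3 each), again with overlapping ranges.

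In 3 libraries many reads differed from a miR-22 arm by 1 or 2 substitutions and were left out by the exact match. When 1 substitution was allowed within the first 18 bases, 1047 and 1418 reads were added to miR-22-3p in NAFLD replicates 2 and 3 and 1004 in normal replicate 2. Only 227, 194 and 173 were added in NAFLD replicate 1 and normal replicates 1 and 3. With at most 2 substitutions, the level of miR-22-3p was 348, 285 and 372 TPM in NAFLD replicates 1 to 3 and 463, 265 and 315 TPM in normal replicates 1 to 3. The ratio of the highest to the lowest library shrank from 2.89 to 1.75. Of the reads with at most 2 substitutions, exact reads were 58.0% to 59.0% in the 3 libraries with many substitutions and 93.7% to 96.1% in the others. For miR-22-5p they were 58.0% to 58.7% and 98.5% to 99.6%. Both arms thus had a like share of exact reads in the 3 libraries with many substitutions.

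With at most 2 substitutions, miR-22-3p had 335 ± 45.2 TPM in NAFLD and 348 ± 103 TPM in normal livers (SD, n = 3 each). Its log2 fold change was -0.05 (standard error 0.24, adjusted p = 0.930 by edgeR), where the median of all tested arms was 0.19. miR-22-5p had 23.3 ± 1.34 and 21.9 ± 3.88 TPM (SD, n = 3 each), with a log2 fold change of 0.09 (standard error 0.25, adjusted p = 0.923 by edgeR). The sign of the 5p difference thus turned with the match, and it turned back to -0.08 when TMM scaling factors were also applied. Relative to the median of all arms, the differences with at most 2 substitutions were -0.24 for miR-22-3p and -0.10 for miR-22-5p. The adjusted p stayed above 0.05 for both arms in these fits. The plot of levels by library shows this convergence.

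**Figure D1:**
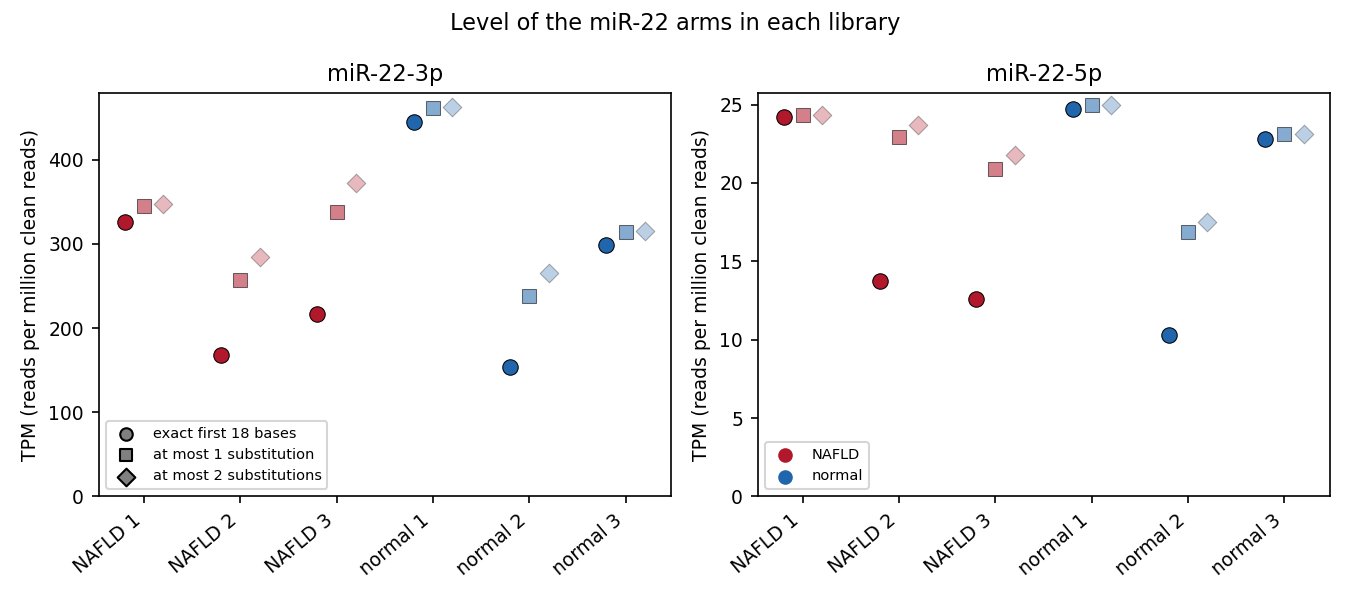
Level of miR-22-3p and miR-22-5p in TPM (vertical axes, from 0) in each of the 6 libraries, red for NAFLD and blue for normal. Circles stand for exact first 18 bases, squares for at most 1 and diamonds for at most 2 substitutions. In NAFLD 2, NAFLD 3 and normal 2 the 3p level rises from 168, 217 and 154 TPM to 285, 372 and 265 TPM, while the other libraries hardly move.

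Within the sets, the group differences of exact miR-22-3p went in opposite directions. Among the libraries with few substitutions, NAFLD replicate 1 had 326 TPM against a mean of 372 TPM in normal replicates 1 and 3. Among those with many, NAFLD replicates 2 and 3 had a mean of 193 TPM against 154 TPM in normal replicate 2. For exact miR-22-5p the values were 24.2 against 23.8 TPM and 13.2 against 10.3 TPM. Each set has 1 library on one side, and no test was run within it. With the set as a covariate in edgeR, the log2 fold change was 0.06 (standard error 0.23, adjusted p = 0.924) for miR-22-3p and 0.19 (standard error 0.26, adjusted p = 0.827) for miR-22-5p, where the median of all arms was 0.24. Without normal replicate 1, the highest library, miR-22-3p had a log2 fold change of 0.06 and miR-22-5p of 0.03. The direction of both differences in exact reads thus turned without that library, and it also turned with the set as a covariate. Relative to the median of all arms, both differences stayed negative. They were -0.094 for miR-22-3p and -0.13 for miR-22-5p without that library, and -0.17 and -0.047 with the set as a covariate.

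The substitutions sat at particular bases. Positions are counted from 1 at the 5′ end of the arm, with the base of the mature sequence first, in the DNA letters of the tags. In miR-22-3p the most common was A14C, with 308 reads in NAFLD replicate 2, 431 in NAFLD replicate 3 and 294 in normal replicate 2, but 0 reads in each of the other 3 libraries. Among reads with at most 1 substitution this was 10.2%, 10.8% and 10.4%. C4A, inside the seed, came next with 7.51%, 7.18% and 7.03% in the same 3 libraries and at most 0.080% in the others. A15C had 3.04%, 3.54% and 3.36%. In miR-22-5p the most common was A16C with 15.2%, 16.6% and 15.5%, followed by T3G with 26, 16 and 18 reads, in the same order of libraries, and both had 0 reads in the other 3. The same libraries thus carried them in either group. The most common positions differed between the arms, while A15C was also found in the 5p arm of these libraries, at 2.59%, 4.86% and 3.00%, and A1C in both arms. The counts of 0 for A14C allow a share of up to 0.075% in NAFLD replicate 1, 0.055% in normal replicate 1 and 0.080% in normal replicate 3. Those for A16C of the 5p arm allow 1.06%, 1.01% and 1.09%.

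G10T of miR-22-3p was found in both sets of libraries. Its reads numbered 114, 41 and 34 in NAFLD replicates 1 to 3 and 89, 39 and 84 in normal replicates 1 to 3. As a share these were 2.85%, 1.36% and 0.854% in NAFLD and 1.63%, 1.38% and 2.25% in normal livers, so it was present in all 6 libraries and the groups overlapped. Reads with a further substitution are left out of this share, so it is not directly comparable between the sets. Reads with 2 substitutions numbered 324 and 415 in NAFLD replicates 2 and 3 and 318 in normal replicate 2. In NAFLD replicate 1 and normal replicates 1 and 3 they numbered 29, 18 and 11. In the 3 libraries with few substitutions its mean share of 2.24% ranked 2 among the most common substitutions of the 37 abundant arms, for which the median was 0.121%. Rank 1 was T12C of miR-30a-5p with 67.0%. Reads of an arm missing from the reference can be counted as substitutions of the nearest arm, and several of the arms listed below were missing. A14C, with a mean of 10.5% in the libraries with many substitutions, ranked 21 of 37 there, near the median of 12.2%. Another substitution, C8T, had 0.999% in NAFLD replicate 1 and 0.198% to 0.859% in the others. Whether these bases come from the RNA or from the reading of it was not tested.

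**Figure D2:**
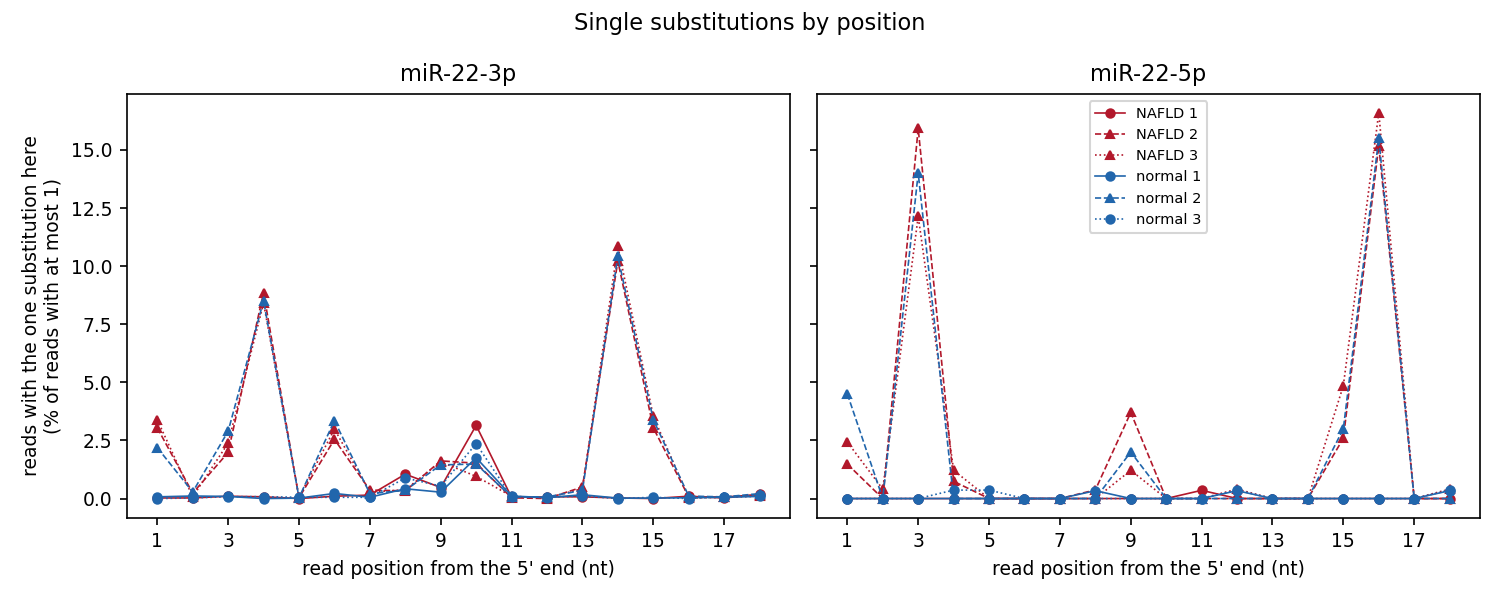
Share of reads with a substitution at each read position (horizontal axis, nt from the 5′ end), in percent of the reads of the arm with at most 1 substitution within 18 bases, for miR-22-3p on the left and miR-22-5p on the right. Red is NAFLD, blue is normal, and triangles mark the 3 libraries with many substitutions. Reads with a further substitution, more frequent in those libraries, are left out. The triangles are highest at 3p positions 4 and 14 and at 5p positions 3 and 16 and lie above the circles at further positions such as 3p positions 1, 3, 6 and 15, whereas at 3p position 10 the circles, at 1.76% to 3.15%, lie above the triangles, at 0.954% to 1.52%.

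Reads of miR-22-3p with a shifted 5′ end were rare. A read that starts 1 base later would carry the seed GCUGCCA and one that starts 1 base earlier AAGCUGC, and 0 arms of the reference have either. In all libraries together, 29 reads started 1 base later and 8 started 1 base earlier with the base of the hairpin, against 18975 at the annotated start. The shifted share was 0.159%, 0.202% and 0.195% in NAFLD replicates 1 to 3 and 0.227%, 0.109% and 0.225% in normal replicates 1 to 3. It overlapped between the groups, with 0.185% ± 0.0232 and 0.187% ± 0.0672 (SD, n = 3 each, two-sided exact permutation p = 1.0, where 3 against 3 cannot give less than 0.1). The counts behind it were 2 to 12 reads per library, and the Wilson interval at 95% ran from 0.030% to 0.398% in normal replicate 2. Of the 33 abundant arms for which this share was computed, the groups did not overlap in 12.1%, and miR-22-3p was at the median of 0.186%. The most frequent shifted tag was agctgccagttgaagaactgt, which lacks the first base and had 2 reads in normal replicate 1 and 3 in normal replicate 3. For miR-22-5p, 5 reads began 1 base earlier and 0 began 1 base later beside 1278 at the annotated start. A count of 0 allows a share of up to 0.234% over all libraries.

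The 3′ end of miR-22-3p was variable, with a pair of main forms. The 5 most abundant tags are given here because they show where the guide ends. Bases that do not follow the hairpin are in capitals.
miR-22-3p, mature form: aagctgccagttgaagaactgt
miR-22-3p, 20 nt form: aagctgccagttgaagaact
miR-22-3p, 23 nt form: aagctgccagttgaagaactgtt
miR-22-3p, trimmed and tailed form: aagctgccagttgaagaaTTTT
miR-22-3p, extended and tailed form: aagctgccagttgaagaactgttT
The mature form of 22 nt took 47.9%, 45.5% and 56.3% of the exact reads in NAFLD replicates 1 to 3 and 55.4%, 52.6% and 52.0% in normal replicates 1 to 3. NAFLD replicates 1 and 2 were below the normal libraries and NAFLD replicate 3 was above them, so the groups overlapped. The mean was 49.9% ± 5.67 in NAFLD and 53.3% ± 1.84 in normal livers (SD, n = 3 each, two-sided exact permutation p = 0.4). The counting error can be read from the Wilson interval at 95%, from 43.4% to 47.7% in NAFLD replicate 2. The groups did not overlap in 15.2% of the 33 abundant arms for this measure. The 20 nt form, which lacks the last 2 bases, took 24.0%, 27.0% and 18.2% in NAFLD replicates 1 to 3 and 21.7%, 20.2% and 22.4% in normal replicates 1 to 3. It was lowest in the library where the mature form was highest, NAFLD replicate 3. Reads that follow the hairpin for exactly 21 bases were rare by contrast, at 1.17% to 1.62% of the reads with any tail included.

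Reads longer than the mature form made up 12.2%, 13.0% and 15.4% in NAFLD replicates 1 to 3 and 11.6%, 14.1% and 11.7% in normal replicates 1 to 3. The means of 13.6% ± 1.67 and 12.5% ± 1.44 (SD, n = 3 each) overlapped (exact permutation p = 0.5), and 12.1% of the 33 abundant arms had no overlap. Among these arms miR-22-3p was ranked 25 from the highest, at 13.0% over all libraries against a median of 39.0%. Its mature form ranked 11 with 51.6%, against a median of 31.4%.

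**Figure D3:**
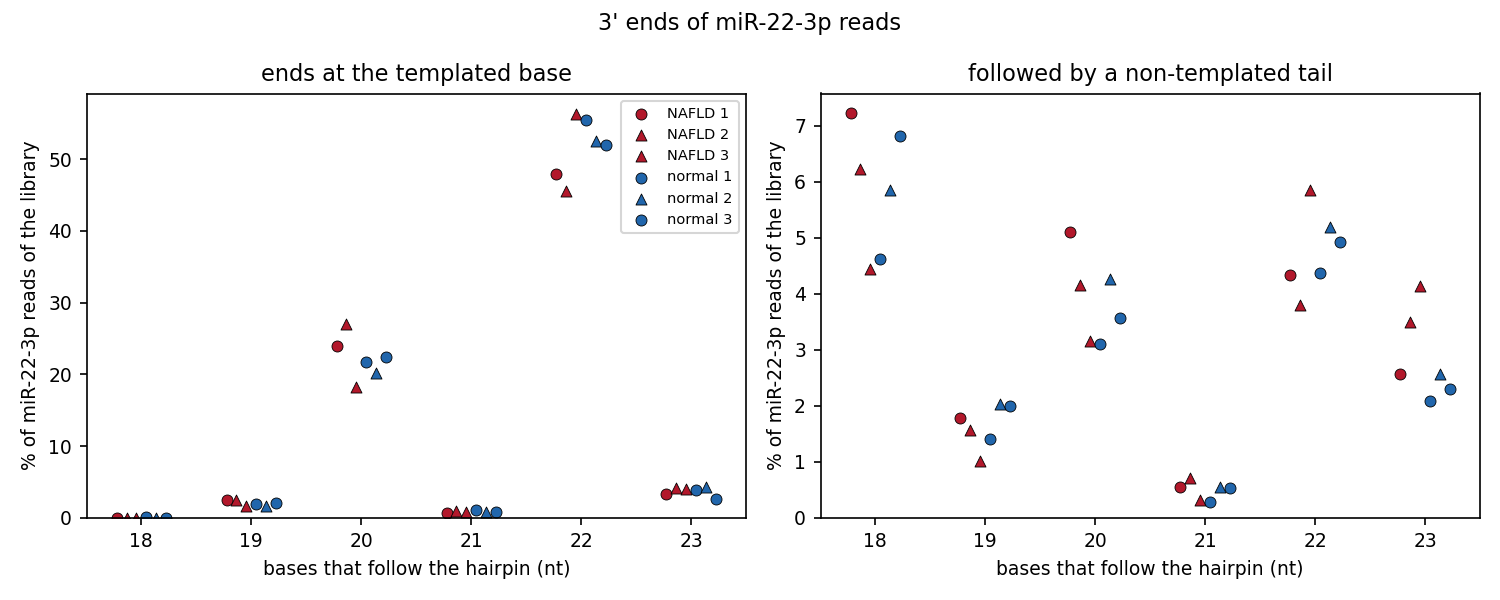
3′ ends of exact miR-22-3p reads in percent of the arm's reads in the library (vertical axes, from 0, different scales), by the number of bases that follow the hairpin (horizontal axis, nt). The left panel holds reads that end there and the right panel reads with further bases that do not follow it. Red is NAFLD, blue is normal, triangles are the libraries with many substitutions, and points of a length are set side by side. The 22 nt form lies at 45.5% to 56.3% and the 20 nt form at 18.2% to 27.0%, and reads that follow the hairpin for 18 bases, the shortest length kept, nearly all carry a tail.

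Bases after the last one that follows the hairpin are called a tail here. A substitution near the 3′ end looks the same, and an added U that equals the next base of the hairpin is not seen as a tail. Tails of 1 to 3 bases were on 15.1%, 14.3% and 14.97% of miR-22-3p reads in NAFLD replicates 1 to 3 and on 12.0%, 14.9% and 14.3% in normal replicates 1 to 3. Normal replicate 1 was low and the other libraries were close together, with means of 14.8% ± 0.434 and 13.7% ± 1.54 (SD, n = 3 each, exact permutation p = 0.2). The groups did not overlap in 6.06% of the 33 abundant arms. Tails of any length were on 20.1% ± 1.35 in NAFLD and 18.8% ± 2.56 in normal livers (SD, n = 3 each, exact permutation p = 0.7).

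U was the main base of these tails. Over all libraries, 48.8% of the tailed miR-22-3p reads had only U in the tail, 23.7% only A, 19.5% both, and 8.01% held G or C. The share with a tail is given by where the arm ended. At 18 bases it is bound by the filters, since the match needs 18 bases and shorter inserts had been removed, so that a read ending there without a tail lies at the length limit. Of the 1109 reads that follow the hairpin for 18 bases, 99.5% had a tail, with a mean tail length of 4.01 bases, and 78.2% of those tails were U only. The form aagctgccagttgaagaaTTTT was the main one, with 3.73%, 3.59% and 2.14% of the arm's reads in NAFLD replicates 1 to 3 and 2.24%, 3.34% and 3.71% in normal replicates 1 to 3. Of the reads that follow it for 20 bases only 14.7% had a tail, and 61.9% of those tails were U only. Of the reads that follow it for 22 bases 8.26% had a tail. After 22 bases the hairpin goes on with U, so a U added there is counted as the 23 nt form. The extended form with a last U beyond 23 bases took 2.12%, 2.88% and 3.47% in NAFLD replicates 1 to 3 and 1.78%, 2.19% and 1.72% in normal replicates 1 to 3, where NAFLD replicate 1 lay below the highest normal library (exact permutation p = 0.2).

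miR-22-5p ended at 2 neighbouring bases in nearly equal shares, and both forms are shown for that reason.
miR-22-5p, 21 nt form: agttcttcagtggcaagcttt
miR-22-5p, mature form: agttcttcagtggcaagcttta
The 21 nt form took 40.9%, 37.0% and 39.6% of the exact reads in NAFLD replicates 1 to 3 and 42.0%, 34.4% and 43.2% in normal replicates 1 to 3. The mature form of 22 nt took 38.8%, 40.1% and 38.3% in NAFLD and 40.3%, 42.6% and 40.2% in normal livers. The mature form was lower in every NAFLD library than in every normal one, by 1.98 percentage points in the mean (exact permutation p = 0.1, the smallest that 3 against 3 allow). The groups did not overlap for this measure in 19.2% of the 78 arms with a mean of at least 10 TPM. The gap between the closest libraries was small beside the counting error, since the Wilson interval in NAFLD replicate 2 ran from 32.9% to 47.8%. With 1 substitution allowed the groups overlapped, with 38.1% ± 2.31 and 41.1% ± 2.06 (SD, n = 3 each).

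Tails of 1 to 3 bases on miR-22-5p were on 11.7%, 12.3% and 14.1% of reads in NAFLD replicates 1 to 3 and on 8.53%, 10.7% and 6.64% in normal replicates 1 to 3. The lowest NAFLD library was thus above the highest normal one, with means of 12.7% ± 1.22 and 8.61% ± 2.01 (SD, n = 3 each, exact permutation p = 0.1, the smallest possible). These shares rest on 33, 20 and 21 tailed reads in NAFLD and 25, 13 and 18 in normal livers, and the Wilson interval in NAFLD replicate 1, from 8.49% to 16.0%, contained the share of normal replicates 1 and 2. Of the 78 arms with a mean of at least 10 TPM, the groups did not overlap for this measure in 8.97%, and 5.13% were higher in NAFLD. With 1 substitution allowed, normal replicate 2 had 13.5% and the groups overlapped (exact permutation p = 0.4). Over all libraries 51.9% of the tailed 5p reads had only A in the tail and 41.2% only U.

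The balance of the arms did not differ between the groups beyond the spread. miR-22-3p reads outnumbered miR-22-5p reads 13.4, 12.2 and 17.2 times in NAFLD replicates 1 to 3 and 18.01, 14.98 and 13.1 times in normal replicates 1 to 3. Both groups held libraries at either end of this range. The log2 ratio of 5p to 3p reads was -3.82 ± 0.256 in NAFLD and -3.93 ± 0.230 in normal livers (SD, n = 3 each, exact permutation p = 0.6). This ratio needs no library total. With at most 2 substitutions it was -3.84 ± 0.256 and -3.97 ± 0.227 (exact permutation p = 0.5, n = 3 each). Among the 6 hairpins of the reference whose arms both had a mean of at least 10 TPM, the groups did not overlap in 16.7%, which was 1 hairpin, Mir122. Mir22 had the smallest difference between the groups of these 6, at 0.11 on the log2 scale, and the lowest ratio of 5p to 3p.

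**Figure D4:**
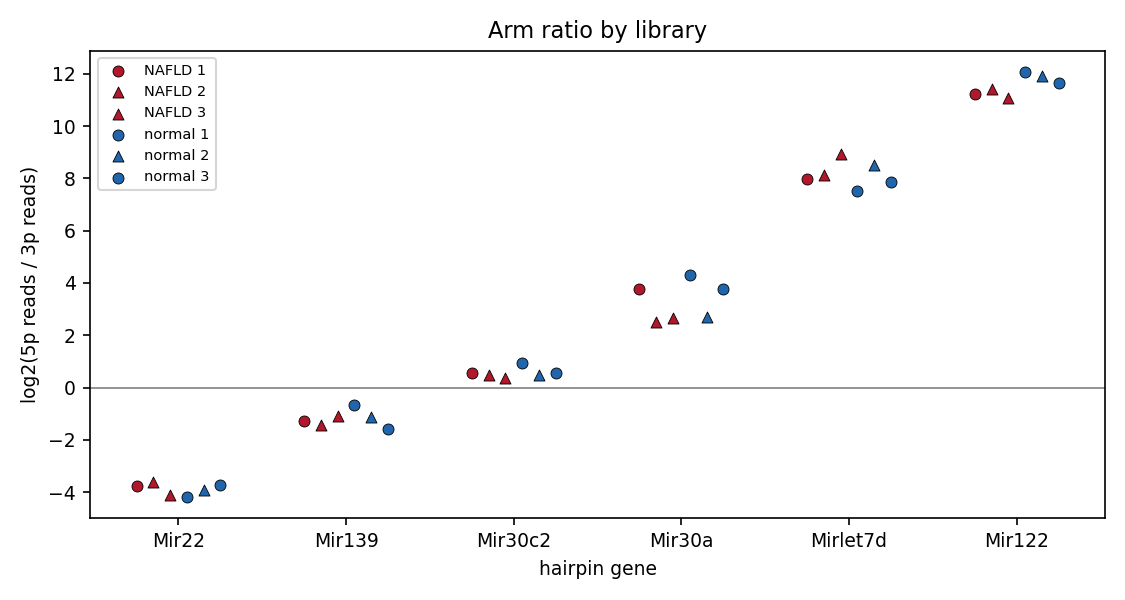
Log2 ratio of 5p to 3p reads (vertical axis) in each library for the 6 hairpins with both arms at a mean of at least 10 TPM (horizontal axis). Red is NAFLD, blue is normal, and triangles are the libraries with many substitutions. The Mir22 points lie between -4.17 and -3.61 with red and blue intermixed, while the Mir122 points do not overlap.

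Over the 6 libraries, the exact levels most like that of miR-22-3p by Pearson's r of log2(TPM + 1) were those of miR-30a-5p, miR-26a-5p and miR-26b-5p, with r = 0.962, 0.951 and 0.949 among 36 other abundant arms. For miR-22-5p they were miR-29a-3p, miR-29c-3p and miR-26b-5p with r = 0.984, 0.984 and 0.983, and the r between the miR-22 arms was 0.926. These r describe 6 libraries in 2 sets that differ in their exact reads, and the libraries share that division. With at most 2 substitutions the highest r for miR-22-3p was 0.804 with miR-26a-5p and for miR-22-5p 0.926 with miR-152-3p, and between the miR-22 arms it was 0.621. The ratio of the mean exact level in the libraries with few substitutions to that in those with many was 1.98 for miR-22-3p, rank 12 of 37 abundant arms, against a median of 1.46. With at most 2 substitutions it was 1.22 against 1.05.

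Among microRNAs known for a part in hepatic lipid or glucose metabolism, 14 of a list of 15 were in the reference and gave 12 different arm starts, since miR-27a-3p and miR-27b-3p, and also miR-103-3p and miR-107-3p, share theirs. Of the 12, 0 were called higher and 1, miR-122-5p, was called lower by edgeR, and the median log2 fold change was -0.13. This was the only call among all 167 arms tested, a share of 0.599%. The hepatocyte markers miR-122-5p, miR-192-5p and miR-194-5p summed to 473951 to 481313 TPM in NAFLD and 582734 to 621503 TPM in normal livers, with miR-122-5p called lower. Nearly all of this sum was miR-122-5p, and the log2 fold change was 0.04 for miR-192-5p and -0.04 for miR-194-5p (adjusted p = 0.986 by edgeR for both). Among markers of other cells 0 arms were called. Endothelial miR-126a (2 of 2 arms tested) had 23.5 to 48.4 TPM in NAFLD and 14.7 to 41.1 TPM in normal livers. The erythroid markers miR-451-5p and miR-144-3p (2 of 3 in the reference) had 24.0 to 67.0 and 26.3 to 42.9 TPM, and the immune markers (4 of 5 in the reference, 3 tested) 26.3 to 38.8 and 20.0 to 42.3 TPM. Smooth muscle miR-143-3p and miR-145-5p had 128 to 219 and 129 to 277 TPM, the 2 epithelial arms at hand 0.765 to 2.03 and 1.77 to 2.95 TPM, with miR-141-3p at 0 in NAFLD replicate 2 and normal replicate 2. The stellate cell markers miR-199a-3p, miR-199a-5p and miR-214-3p summed to 404 to 446 TPM in NAFLD and 213 to 390 TPM in normal livers. Of these 3 arms 0 were called. Nearly all of this sum was miR-199a-3p, with 400 to 439 TPM in NAFLD and 210 to 384 TPM in normal livers. Its log2 fold change was 0.51 (standard error 0.38, adjusted p = 0.986 by edgeR). The share of all arms whose levels did not overlap was not computed, so this gap has no background to be read against. For miR-199a-5p the groups overlapped, at 0.846 to 1.72 TPM in NAFLD and 0.421 to 1.35 TPM in normal livers. They also overlapped for miR-214-3p, at 3.23 to 5.69 and 1.94 to 4.30 TPM. The part of these cells in the level of miR-22 was not tested.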

How the data were processed

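Small RNA of each liver was size-selected on a gel and sequenced by the authors. They discarded reads of low quality, adaptor artefacts, poly A and inserts shorter than 18 nt, and deposited the raw count of each remaining tag. The submitters name the genome build Rnor_5.0. The counts were not normalized, and they summed to the clean reads of the deposited log. Here TPM was computed by total clean reads, following the methods of the study. Mature sequences came from RefSeq (GRCr8), 7 of them too short to match. Starts shared by several arms were counted once. Tags with substitutions went to the nearest arm, and ties were left out.

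Arms kept by filterByExpr were tested with the quasi-likelihood functions of edgeR 4.0.16 (R 4.3.3), with Benjamini-Hochberg adjustment over all of them and a threshold of 0.05. Standard errors were derived from the log2 fold change and its F statistic. DESeq2 1.42.0 and limma 3.58.1 were alternatives. Other steps used scipy 1.17.1, numpy 2.4.6 and pandas 2.3.3 under Python 3.11.15. Shares and ratios were compared by two-sided exact permutation tests. The fit was tested on simulated data. At the spread of the fit, 6 of 14 arms with a log2 change of 1 were recovered. For changes of 2 and 4 these were 12 of 14 and 13 of 13, and 3 unchanged arms were called.

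At these depths counting error is small for the 3p arm and larger for the 5p arm. Wilson intervals at 95% and the limit of 3 counts for a count of 0 cover counting error only: PCR copies of a molecule are counted as separate reads. The replicate numbers come from the sample titles. Nothing states that they pair the rats. Each rat gave a single library, so the spread between replicates holds differences between rats and between libraries together. For exact reads it also holds the difference between the sets of libraries with few and many substitutions.

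The members, lists and division by substitutions were chosen with earlier results of these data known. Named besides miR-22 are its most abundant tags, its neighbours by mean TPM, the 3 arms with the highest r to each arm, and listed arms where a result turned on them. Tails of any length, up to 2 substitutions, substitutions by position and the forms of the 5p arm were added after the data were seen. The FASTA form of the tag lists held the same counts and was not used.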

Additional observations from a re-analysis of the deposited data

How the results depend on the processing

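Neither miR-22 arm passed an adjusted p of 0.05 in edgeR, DESeq2 or limma under any alternative run. The log2 fold change of miR-22-3p reversed from -0.34 to 0.065 with the substitution set as a covariate, and that of miR-22-5p from -0.19 to 0.070 and 0.088 with at most 1 and 2 substitutions and to 0.19 with the set as covariate. Relative to the median of all tested arms, these differences stayed negative, at -0.17 for miR-22-3p with the set as covariate. For miR-22-5p they were -0.083 and -0.10 with at most 1 and 2 substitutions and -0.047 with the set as covariate. The cause was not tested. Leaving out single replicates gave -0.65 to 0.065 for miR-22-3p and -0.55 to 0.028 for miR-22-5p, reversed without normal replicate 1. Relative to the median of all arms in that fit, the 3p and 5p differences were -0.094 and -0.13. The number of arms called by edgeR was 1 (3 at an unadjusted p under 0.05), 0 with TMM factors (12 unadjusted), 0 with 18-base starts as features (998 of 10516 unadjusted), 0 with at most 2 substitutions (19 unadjusted), and 0 by limma (2 unadjusted). With at most 2 substitutions and TMM factors together it was 1 by edgeR (20 unadjusted). It was 1 to 2 when single replicates were left out, 2 without NAFLD replicate 1.

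The log2 arm ratio difference of 0.11 was -0.012 to 0.25 without single replicates, reversed without normal replicate 1. The 5′ shifted share difference of -0.0019 percentage points was -0.041 to 0.018 without single replicates and 0.089 within the libraries with many substitutions. With tags of at least 10 reads no shifted tag was left, so that alternative gave no value. The mature-length difference of -3.40 points was -6.61 to -1.21, the longer-read difference of 1.10 points 0.159 to 1.93, and the tail difference of 1.11 points 0.236 to 1.70, without single replicates. The tail difference was -0.241 within the libraries with many substitutions. The replicate block gave log2 fold changes of -0.26 and -0.16 for the 3p and 5p arms and 1 call. Deviations of same-numbered libraries over 167 arms correlated with r = 0.149, 0.340 and -0.541. These r rest on exact reads, which also differ by substitution set, so they cannot decide whether the numbers pair the rats.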
